A study of Saccharomyces cerevisiae with 6 samples.

Results

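Chromosome I, the shortest chromosome of budding yeast, was followed through early S phase as 230 windows of 1 kb that do not overlap, out of 12070 such windows in the genome. The members were all windows of the chromosome that start at the first base of each kilobase of the S288c reference (sacCer2), up to its last base at 230208. DNA was sequenced from *Saccharomyces cerevisiae* of the W303 background carrying either wild-type Pol2 or *pol2-REL* (the mutant in what follows), the catalytic subunit of DNA polymerase ε with the substitutions R567C, E611K and L621F. Both strains carried a 3HA tag and a KAN marker on Pol2 (genotypes Pol2-3HA::KAN and pol2-REL-3HA::KAN), and the labels name 1 strain for each genotype. Cells were grown in YPD at 24 °C and arrested in G1 with alpha-factor, the mating pheromone that stops the cycle before DNA replication. They were released by pronase, which degrades the pheromone, and collected in G1 and at 30 and 40 min. Each of the 6 conditions is a single library, and differences therefore come without a replicate check or a p-value. Intervals are 95% intervals for counting error, assume independent reads, and do not cover the difference between cultures.

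Replication of a yeast chromosome starts at many origins, short sequences where the replicative helicase is loaded in G1 and activated in S phase. DNA polymerase ε travels with the helicase and synthesizes the leading strand, and it is also needed to assemble the active helicase. Once a locus is copied its DNA content goes up, and its reads in S phase relative to G1 are therefore higher at and around origins that have fired. Peaks of such a profile mark regions copied early, and valleys mark regions copied later, often where forks from neighbouring origins meet. In budding yeast the surroundings of centromeres are generally copied early and regions near telomeres late. The centromere of chromosome I lies in the right part of the chromosome as divided here. Subtelomeric repeats, FLO genes for cell adhesion proteins near both ends, and a Ty1 element on the right arm make parts of chromosome I repetitive in S288c. The RefSeq table used here lists 94 protein-coding genes on the chromosome, 68 with left-arm names (YAL) and 26 with right-arm names (YAR). It belongs to another build than the files (R64), so windows were not assigned to genes or to named origins, and no sequence is shown.

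Of the 230 windows, 196 had a ratio deposited in all 4 S phase profiles, and only these entered the profiles. The other 34 windows held fewer than 602 reads in at least 1 of the libraries, the lowest count among windows with a deposited ratio. No read was counted in any library in 7 of them. The windows without a ratio were unevenly placed. The left part of the chromosome, below 60 kb, lacked 1 of its 60 windows, from 26001 to 27000. The right part lacked 33 of its 170 windows, of which 6 formed a run from 160001 to 166000 and 27 lay among the 31 windows from 199001 to the end. The last 31 kilobases are thus represented by 4 windows, and the values given for them rest on those few. Whether the missing windows coincide with the known repeats was not tested.

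Chromosome I was the most deeply covered of the 16 chromosomes in every library, and its excess was largest in wild-type G1. Its windows held 885066 of 30741752 reads in wild-type G1 (2.88%), 881777 of 40161464 at 30 min (2.20%) and 653701 of 29468649 at 40 min (2.22%). In the mutant they held 363542 of 19156804 reads in G1 (1.90%), 728815 of 29987832 at 30 min (2.43%) and 783257 of 32534281 at 40 min (2.41%). The mean window of chromosome I over that of the whole library was 1.68 in wild-type G1 (95% interval 1.68 to 1.69), 1.28 at 30 min and 1.30 at 40 min. In the mutant it was at 1.11 in G1 (1.10 to 1.11), 1.42 at 30 min and 1.41 at 40 min. The G1 library of *pol2-REL* was therefore the one in which chromosome I stood closest to the rest of the genome. Chromosomes VI and III, the next shortest, were at 1.60 and 1.35 in wild-type G1, against 1.09 and 1.03 in *pol2-REL* G1. The median window with a ratio held 4376 reads in wild-type G1 but 1794 in that of *pol2-REL*, where counting error alone was 1.51% and 2.36%.

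**Figure D1:**
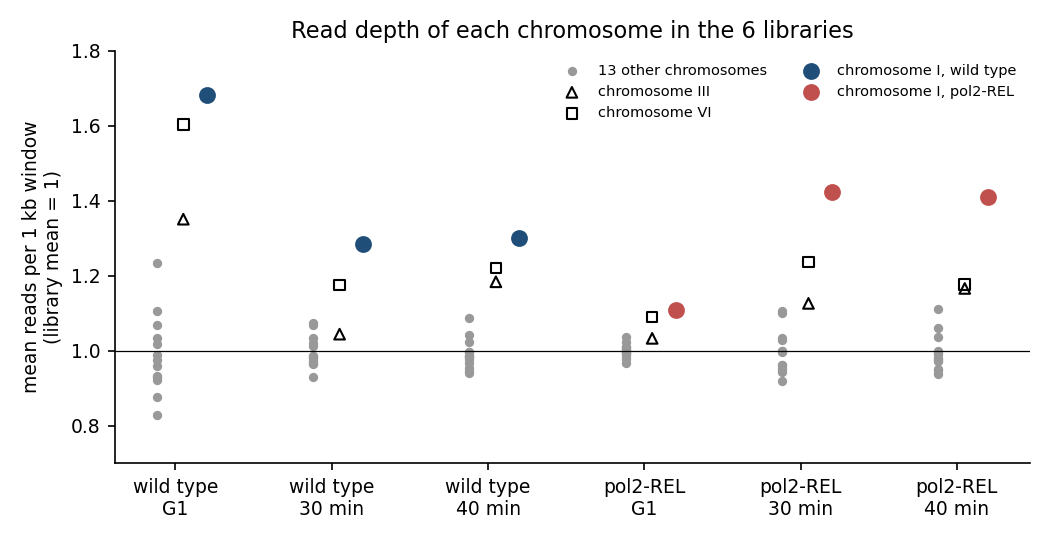
Mean reads per 1 kb window of each chromosome (vertical axis, library mean set to 1) in the 6 libraries (horizontal axis). Filled large circles are chromosome I, triangles chromosome III, squares chromosome VI and small grey points the other chromosomes. Chromosome I is the highest point of every library, from 1.11 in *pol2-REL* G1 to 1.68 in wild-type G1.

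Because the G1 library is the denominator, the copy number of chromosome I as a whole depended on which G1 library was used, to the point of changing direction. The level was taken as S phase over G1 reads, both summed over chromosome I, divided by the same ratio over 11507 windows of the genome. With the G1 library of its own genotype, wild type was at 0.763 (0.761 to 0.766) at 30 min and 0.773 (0.771 to 0.776) at 40 min. On the same basis *pol2-REL* was at 1.29 (1.28 to 1.29) and 1.27 (1.27 to 1.28). Chromosome I thus ranked 15 of 16 chromosomes in wild type and 1 of 16 in the mutant at both times. With the G1 libraries exchanged, wild type was at 1.16 and 1.17, and *pol2-REL* at 0.846 and 0.838. Chromosome I then ranked 1 of 16 in wild type at both times, and 14 and 15 of 16 in the mutant at 30 and 40 min. With the sum of both G1 libraries, all 4 values were below 1, at 0.879 and 0.890 in wild type and 0.974 and 0.965 in the mutant. This sum is not a balanced reference, since the deeper wild-type library weighs more in it. Of its reads on chromosome I, 885066 came from wild-type G1 and 363542 from *pol2-REL* G1. The change of direction was not particular to chromosome I. With own G1 libraries at 30 min, chromosomes VI and III were at 0.733 and 0.773 in wild type and 1.13 and 1.09 in the mutant. With exchanged ones they were at 1.08 and 1.01 in wild type and 0.771 and 0.834 in the mutant.

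The genotypes were also compared without any G1 library. The share of S phase reads on chromosome I was 1.109 times as high in the mutant as in wild type at 30 min (1.105 to 1.112) and 1.084 times at 40 min (1.081 to 1.088). With own G1 libraries the same comparison gave 1.68 and 1.65, and with exchanged G1 libraries 0.730 and 0.714. On chromosome I, wild-type G1 exceeded *pol2-REL* G1 by a factor of 1.52 (1.51 to 1.52), and this factor separates the values with and without G1 libraries. From 30 to 40 min, where the G1 library cancels, the level of chromosome I relative to the genome differed by a factor of 1.01 in wild type (1.009 to 1.016) and 0.990 in the mutant (0.987 to 0.994). Both factors were within 2% of no change, and with 1 library each they have no replicate check.

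Within the chromosome the G1 libraries differed by less than in its overall level. Each was scaled to its mean over the 196 windows and smoothed by a Gaussian kernel (SD 2 kb), after which the ratio of wild-type to *pol2-REL* G1 reads ran from 0.913 to 1.05. It was within 5% of 1 in 190 of the 196 windows. Its mean was 1.01 over the windows at the tops of the 6 peaks described next and 0.991 over those at the bottoms of the 7 valleys. Single tops ranged from 0.966 at 16001 to 1.05 at 159001, and single bottoms from 0.935 at 203001 to 1.02 at 99001. Such differences are as large as some of the peak heights given below. Both G1 libraries were deeper on the left than on the right part, with a left over right ratio of reads per window of 1.19 in wild type (1.18 to 1.19) and 1.21 in the mutant (1.20 to 1.22). Values along the chromosome are given from here on as relative copy number. This is the S phase to G1 ratio of a window, with the G1 library of the same genotype unless stated, scaled to a mean of 1 over the chromosome. On this scale a common factor for the chromosome is lost, and a window shows only how it compares with the rest of chromosome I.

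The profile of chromosome I was gently sloped at 30 min and strongly contoured at 40 min, in both genotypes. At 30 min wild type spanned smoothed values of 0.868 to 1.14 and the mutant 0.900 to 1.18, with the top in both in the window from 176001 to 177000. At 40 min the wild-type span was 0.730 to 1.26 and that of the mutant 0.869 to 1.27. The wild-type top at 40 min was the lone window from 220001 to 221000, and its highest called peak, from 175001 to 176000, was at 1.25. The lowest windows at 40 min were neighbours, starting at 99001 in wild type and at 98001 in the mutant. The SD over windows was 0.0646 in wild type and 0.0477 in the mutant at 30 min, a ratio of 0.738 (0.667 to 0.810), against a median counting error of 0.00805 and 0.0108. At 40 min it was 0.137 and 0.103, a ratio of 0.752 (0.715 to 0.790). With exchanged G1 libraries the ratios were 0.718 and 0.745. The SDs depend on the scale, since with a mean of 1 over the genome and own G1 libraries the ratios were 1.27 at both times. That scale carries the level of the whole chromosome, which depended on the G1 library. Among the 16 chromosomes, chromosome I had the 14th largest SD in wild type at 30 min and the 15th at 40 min, and the 16th and 14th in the mutant. The 2 genotypes had profiles of similar shape, with a Pearson's r over the 196 windows of 0.729 at 30 min and 0.855 at 40 min. Neighbouring windows are not independent, and these coefficients describe the libraries only.

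**Figure D2:**
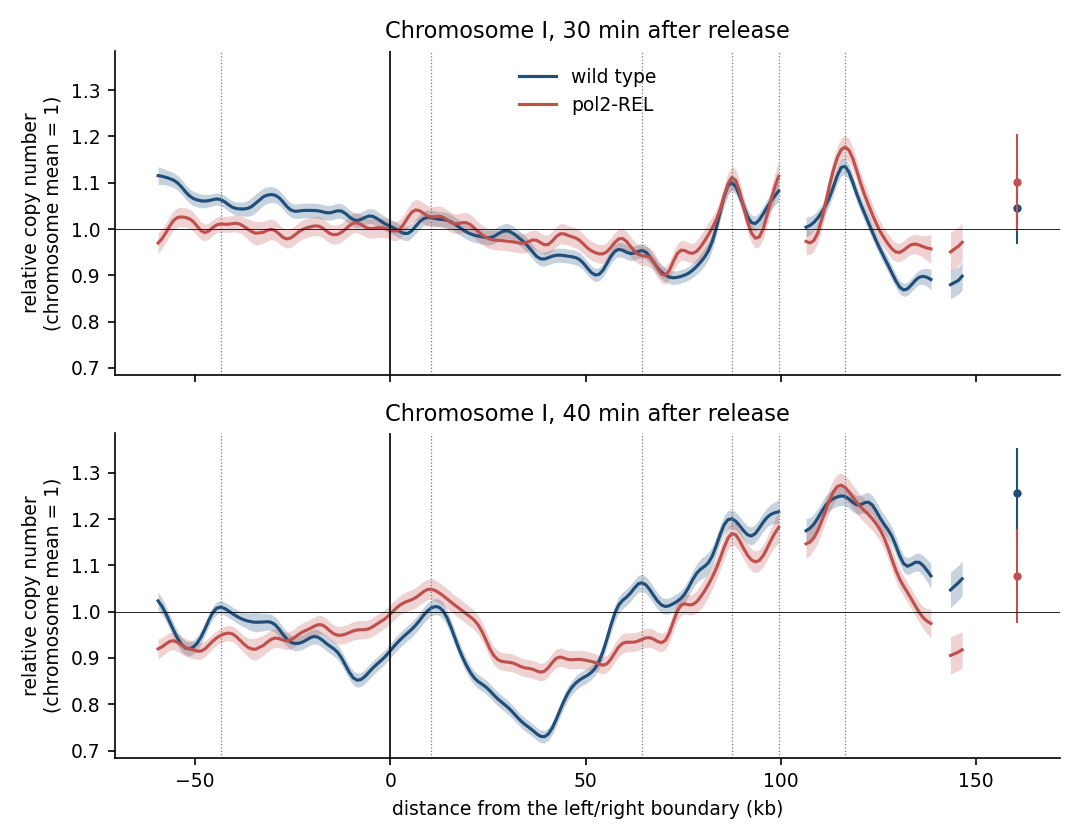
Relative copy number along chromosome I (vertical axis, chromosome mean of 1) against distance from the boundary between the left and right parts (horizontal axis, kb; black vertical line), at 30 min (top) and 40 min (bottom). Lines are smoothed values, bands their 95% counting intervals, gaps windows without a ratio, isolated points or short lines the last windows with one, and dotted lines the 6 peaks. At 40 min wild type reaches down to 0.730 at its lowest window and *pol2-REL* to 0.869.

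Peaks and valleys were placed on the mean of the 4 profiles, to which wild type at 40 min, with the largest SD, contributed most. A peak had to be at least 10 kb from the next and to stand out by at least 4 times the counting error of that mean, 0.00601. This gave 6 peaks and 7 valleys. Only 1 peak, at 16001 to 17000, lay in the left part. The other 5 lay in the right part, at 70001 to 71000, 124001 to 125000, 147001 to 148000, 159001 to 160000 and 176001 to 177000. Called on each profile separately, there were 5 peaks in wild type at 30 min and 6 at 40 min, and 5 and 3 in the mutant. The peaks at 40 min in the mutant were those at 70001, 147001 and 175001. The calls at 147001 were common to all 4 profiles, and each also had a call at 175001 or 176001. All 6 calls in wild type at 40 min lay within 3 kb of a common peak, against 4 of 5 in wild type at 30 min and 3 in each mutant profile, so the positions were closest to those of wild type at 40 min.

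The 3 peaks between 147001 and 177000 were the highest of the 6 in every profile. At 176001 to 177000 the libraries held 4056 reads in wild-type G1, 4981 at 30 min and 3823 at 40 min, and 1743, 4184 and 4736 in the mutant. Its relative copy number was 1.14 in wild type and 1.18 in the mutant at 30 min, and 1.25 and 1.27 at 40 min. With the G1 libraries exchanged, the values were 1.14 and 1.17 at 30 min and 1.26 and 1.26 at 40 min. The value at the top of this peak thus hardly depended on the reference, unlike its height at 40 min, given below. At 147001 to 148000 the libraries held 4288, 4915 and 3854 reads in wild type and 1675, 4017 and 4465 in the mutant. Here the relative copy number was 1.10 and 1.11 at 30 min and 1.20 and 1.17 at 40 min, in wild type and *pol2-REL*. The intervals of the genotypes overlapped at both times at this peak, though not with the G1 libraries exchanged, when the values were 1.13 and 1.08, and 1.24 and 1.13. The peak at 159001 to 160000 borders the run of windows without a ratio, so its true top may lie inside that run. It stood at 1.08 and 1.11 at 30 min and 1.22 and 1.18 at 40 min. Exchanging the G1 libraries turned the order of the genotypes there at 30 min, to 1.14 in wild type and 1.06 in the mutant, and gave 1.28 and 1.13 at 40 min. All 3 of these peaks were already above the chromosome mean at 30 min in both genotypes, with either G1 library.

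The peak at 124001 to 125000 was the one that differed most between genotypes at 40 min with their own G1 libraries. In this window 4394 reads were counted in wild-type G1, 4320 at 30 min and 3450 at 40 min, and 1811, 3329 and 3717 in the mutant. In wild type the relative copy number was 0.954 (0.938 to 0.969) at 30 min, below the chromosome mean, and 1.06 (1.04 to 1.08) at 40 min. In the mutant it was 0.943 (0.922 to 0.963) and 0.940 (0.920 to 0.961). The wild-type value at 40 min was higher than at 30 min past counting error, while both *pol2-REL* values lay within each other's interval. Exchanging the G1 libraries gave 0.965 and 1.08 in wild type and 0.931 and 0.929 in the mutant. Called separately, the peak was found in wild type at 40 min and not in the mutant at 40 min.

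Between the peaks at 70001 and 124001, at 99001 to 100000, lay the deepest valley of the chromosome at 40 min in both genotypes. At 30 min the lowest windows lay elsewhere, starting at 191001 in wild type (0.868) and at 130001 in the mutant (0.900). The valley at 99001 held 4237 reads in wild-type G1, 3892 at 30 min and 2256 at 40 min, and 1795, 3288 and 3213 in the mutant. Its relative copy number in wild type was 0.935 (0.920 to 0.950) at 30 min and 0.730 (0.716 to 0.743) at 40 min. In the mutant it was 0.966 (0.945 to 0.987) and 0.871 (0.852 to 0.890). The genotypes were thus further apart at 40 min than at 30 min, and the lowest level of the chromosome was in wild type. With exchanged G1 libraries the values at 40 min were 0.745 and 0.854. The valley at 51001 to 52000, just inside the left part, was of the same kind, with 1.02 and 0.852 in wild type and 1.01 and 0.961 in the mutant at 30 and 40 min. Between these valleys, the peak at 70001 to 71000 hardly moved, at 1.02 and 1.01 in wild type and 1.03 and 1.05 in the mutant. Its height was larger at 40 min, when the valleys on both sides were lower.

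The remaining valleys lay between the peaks of the right part or near the ends. At 130001 to 131000 the relative copy number was 0.900 in both genotypes at 30 min, and 1.01 in wild type and 0.938 in the mutant at 40 min. The valleys inside the group of 3 peaks, at 153001 to 154000 and 166001 to 167000, were at 1.01 and 1.00 in wild type at 30 min and both at 1.17 at 40 min. In the mutant they were at 0.980 and 0.973 at 30 min, and at 1.11 and 1.15 at 40 min. Both had a higher relative copy number at 40 min than at 30 min in both genotypes. The valley at 203001 to 204000 rests on the sparse windows near the right end, with 2987, 2654 and 2291 reads in wild type and 1292, 2458 and 2500 in the mutant. It was at 0.880 and 1.05 in wild type, and at 0.951 and 0.905 in the mutant. The valley at 10001 to 11000, near the left end, was at 1.06 and 0.932 in wild type, and at 1.01 and 0.915 in the mutant.

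Heights, the relative copy number of a peak minus the mean of its adjacent valleys, were compared for each peak. At 30 min the 3 peaks between 147001 and 177000 had heights of 0.144, 0.0742 and 0.194 in wild type and 0.171, 0.137 and 0.215 in the mutant. The 3 peaks further left had heights of 0.0232, 0.0476 and 0.0359 in wild type and 0.00115, 0.0363 and 0.00933 in the mutant. At 40 min these left-hand peaks had heights of 0.118, 0.217 and 0.192 in wild type and 0.0108, 0.133 and 0.0355 in the mutant. Each was lower in the mutant past the counting interval of the difference. With own G1 libraries, however, the positions at 16001 and 124001 were called separately only in wild type at 40 min. Lower heights in the mutant at these 2 positions are therefore partly built in by the placement. The 3 peaks between 147001 and 177000 then had heights of 0.111, 0.0438 and 0.138 in wild type and 0.146, 0.0551 and 0.243 in the mutant. The last of these was higher in the mutant past that interval. At 30 min only the peak at 159001 differed past that interval, and it was higher in the mutant.

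At the same positions, the first 3 peaks at 40 min were also lower in the mutant with the G1 libraries exchanged. This exchange left the placement of the peaks unchanged and so says nothing about its effect. Of the other 3, the order of the genotypes turned at 147001 and 159001, and at 176001 the genotypes became nearly equal. Exchanged, the first 3 heights at 40 min were 0.0841, 0.238 and 0.198 in wild type and 0.0436, 0.112 and 0.0320 in the mutant, each lower past the interval. The other 3 were 0.143, 0.113 and 0.191 in wild type and 0.115, -0.00962 and 0.193 in the mutant. The excess at 176001 was thus no longer past the interval, and the peak at 159001 was lower in the mutant past the interval. At 30 min the exchanged height at 159001 was 0.135 in wild type and 0.0769 in the mutant, the opposite order to that with own G1 libraries. In all, 4 heights at 30 min were then lower in the mutant past the interval and 1 was higher.

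**Figure D3:**
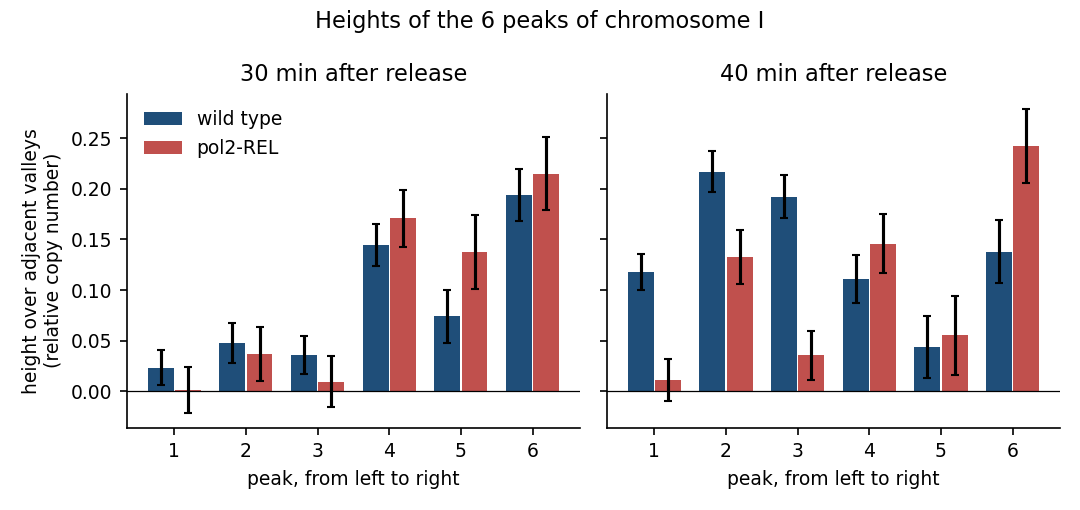
Height of each of the 6 peaks over the mean of its adjacent valleys (vertical axis, relative copy number) at 30 min (left) and 40 min (right), numbered from left to right along the chromosome. Bars are single libraries, blue for wild type and red for *pol2-REL*, with 95% counting intervals. Peaks 1 to 3 are lower in the mutant at 40 min, but 1 and 3 were called separately only in wild type at 40 min with own G1 libraries. Peak 6 is higher with own G1 libraries, 0.243 against 0.138, but nearly equal with exchanged ones, 0.193 against 0.191.

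Summed over the 6 peaks, the height was 0.519 in wild type and 0.570 in the mutant at 30 min, a ratio of 1.10 (0.919 to 1.28). At 40 min it was 0.820 and 0.623, a ratio of 0.760 (0.654 to 0.866). The sum at 30 min was not resolved by the counting error. Both ratios were lower with the G1 libraries exchanged, at 0.693 (0.577 to 0.809) and 0.502 (0.432 to 0.573). The ratio at 40 min also depended on where the peaks were placed. It was 0.720 on peaks called on wild type alone, and it turned to 1.68 on the 4 peaks called on *pol2-REL* alone.

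The left part, below 60 kb, was above the right part in wild type at 30 min and below it in both genotypes at 40 min. In wild type at 30 min the left over right ratio of S phase over G1 reads was 1.08 (1.07 to 1.08). In the mutant at 30 min this ratio was 1.00 (0.993 to 1.01), with 1 inside its interval. At 40 min the left part was below the right part in both genotypes, at 0.928 (0.922 to 0.935) in wild type and 0.923 (0.915 to 0.931) in the mutant. The mean relative copy number of the 59 windows on the left was 1.05 and 0.943 in wild type and 1.00 and 0.945 in the mutant, at 30 and 40 min. That of the 137 windows on the right was 0.977 and 1.02 in wild type and 0.999 and 1.02 in the mutant. The windows beside the boundary were alike. From 59001 to 60000 the unsmoothed relative copy number was 1.01 and 0.920 in wild type and 1.05 and 1.00 in the mutant, and from 60001 to 61000 it was 1.01 and 0.938, and 1.01 and 1.03.

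With the G1 libraries exchanged, the left over right ratio was 1.06 (1.05 to 1.07) and 0.911 (0.903 to 0.919) in wild type at 30 and 40 min. In the mutant it was 1.02 (1.01 to 1.03) and 0.941 (0.935 to 0.947). The order of the genotypes at 30 min did not depend on the reference. The ratio in the mutant over that in wild type was 0.930 (0.920 to 0.940) with own G1 libraries, 0.967 (0.957 to 0.977) with exchanged ones and 0.948 (0.942 to 0.954) from the S phase reads alone. At 40 min it did, with 0.994 (0.984 to 1.01), 1.03 (1.02 to 1.04) and 1.014 (1.007 to 1.021) in the same order. At that time the genotypes could not be told apart with their own G1 libraries.

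**Figure D4:**
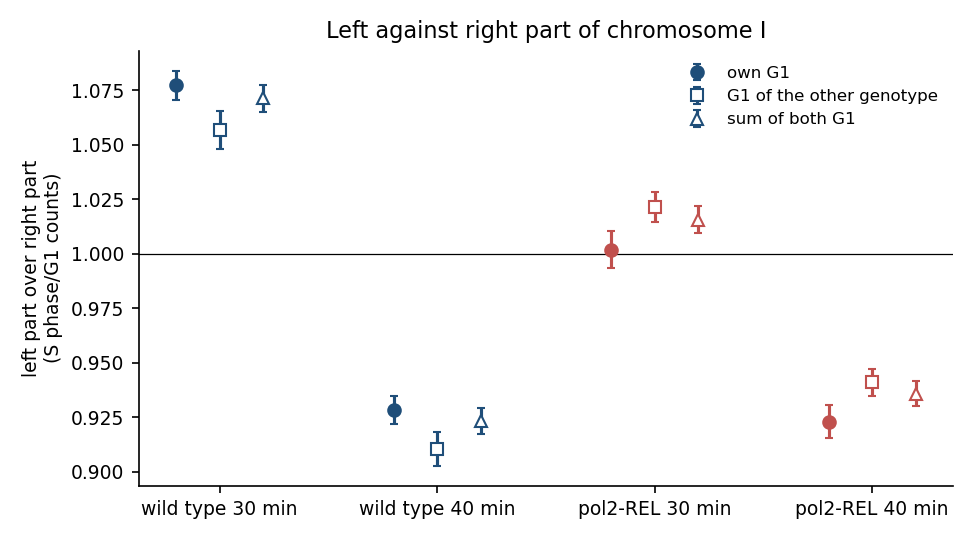
Ratio of S phase to G1 reads on the left part of chromosome I over that on the right part (vertical axis) in the 4 S phase libraries (horizontal axis; blue wild type, red *pol2-REL*). Filled circles use the G1 library of the same genotype, open squares that of the other genotype and open triangles the sum of both, with 95% counting intervals. Wild type at 30 min is above 1 and both genotypes at 40 min are below 1 with each reference.

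The left part of chromosome I was compared with the 60 kb next to each of the 30 ends of the other 15 chromosomes, each over the rest of its own chromosome. Own G1 libraries were used throughout. In wild type at 30 min only 2 of the 30 ends had a higher ratio than the left part of chromosome I. The median of the 30 was 0.959. The 2 were the left end of chromosome VI, at 1.12, and the right end of chromosome III, at 1.10, on the next shortest chromosomes. Both were lower at 40 min, at 0.958 and 0.814, so this pattern was not particular to chromosome I. At 40 min 15 of the ends were higher and 15 lower, with a median of 0.929. In the mutant 26 of the ends were higher than the left part of chromosome I at 30 min and 29 at 40 min, with medians of 1.09 and 1.07. The right 60 kb of chromosome I, measured in the same way, was at 0.978 and 1.22 in wild type and at 1.04 and 1.16 in the mutant. No test was made of these orders, and they were not recomputed with exchanged G1 libraries. The difference in medians between the genotypes therefore cannot be told apart from the difference between their G1 libraries.

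Steps of 20 kb show where the left part was high. In wild type at 30 min its windows from 1 to 20000 averaged 1.08, those from 20001 to 40000 1.05 and those from 40001 to 60000 1.03, so that values declined from the end inward. In the mutant the same steps averaged 1.00, 0.997 and 1.00. At 40 min they averaged 0.974, 0.959 and 0.896 in wild type and 0.932, 0.938 and 0.963 in the mutant. The slope of the left part at 40 min was therefore opposite in direction between the genotypes. Further right, the step from 80001 to 100000 was the lowest at 40 min in wild type, at 0.791. In the mutant the lowest step was that from 100001 to 120000, at 0.899, close to the 0.906 of the step before it. Among steps of more than 3 windows the highest were those from 160001 to 180000 at 1.22 in both genotypes.

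The change from 30 to 40 min can be read from the S phase libraries alone, since the G1 library cancels. On the left part relative to the right it was a factor of 0.862 (0.856 to 0.868) in wild type and 0.921 (0.915 to 0.928) in the mutant. The mutant factor was closer to 1, and was 1.07 times that of wild type (1.06 to 1.08). Along the chromosome the smoothed 40 over 30 min ratio, scaled to a mean of 1, spanned 0.778 to 1.28 in wild type, against 0.894 to 1.19 in the mutant. The lowest windows started at 94001 in wild type and at 97001 in the mutant, and the highest at 189001 and 168001. At the peak from 124001 to 125000 the ratio was 1.11 (1.09 to 1.13) in wild type and 0.998 (0.980 to 1.02) in the mutant. At the valley from 99001 to 100000 it was 0.778 (0.763 to 0.792) and 0.902 (0.886 to 0.919). At the peaks from 147001 and 176001, already high at 30 min, the genotypes differed less, with 1.09 and 1.10 in wild type and 1.05 and 1.08 in the mutant.

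**Figure D5:**
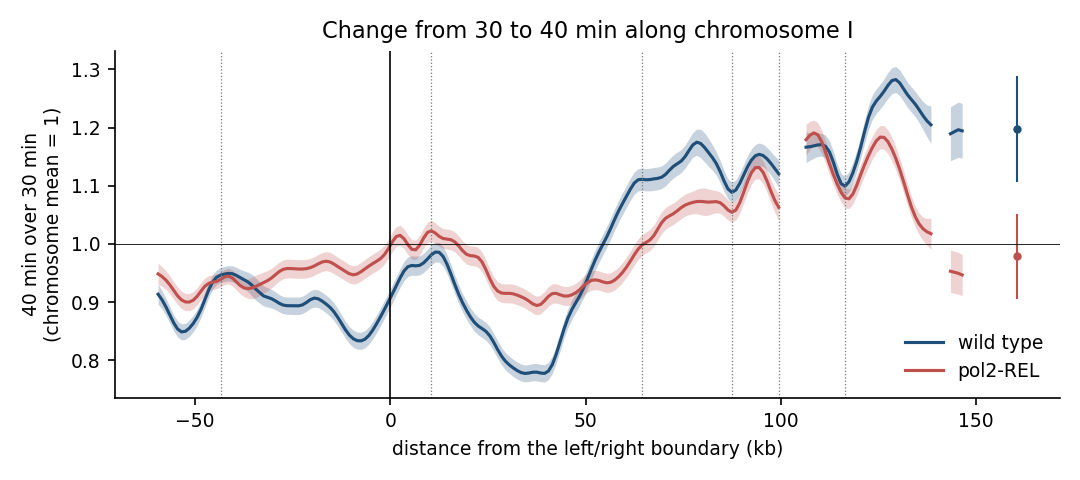
Ratio of reads at 40 min to reads at 30 min along chromosome I (vertical axis, chromosome mean of 1), with no G1 library, against distance from the boundary between the parts (horizontal axis, kb). Lines are smoothed values for wild type (blue) and *pol2-REL* (red), bands 95% counting intervals, and dotted lines the 6 peaks. Wild type spans 0.778 to 1.28 and *pol2-REL* 0.894 to 1.19.

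Windows were also called as changed when their smoothed values differed by over 1.1-fold, a rule of size with no test. From 30 to 40 min in wild type 72 of the 196 windows (36.7%) were lower and 71 (36.2%) were higher. Over the genome 33.7% of windows were lower and 24.9% higher. Of the lower windows 42 lay among the 59 on the left, and of the higher windows all 71 lay on the right. The lower windows formed 4 runs, from 1001 to 13000, 29001 to 40000, 41001 to 60000 and 78001 to 108000. All higher windows lay between 122001 and 221000. In the mutant 14 windows (7.14%) were lower and 27 (13.8%) higher, against 11.2% and 15.1% over the genome. The higher ones lay between 151001 and 192000. By this measure the share of lower windows on chromosome I was close to that of the genome in wild type and under it in the mutant, and that of higher windows was over it in wild type and close to it in the mutant.

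Between genotypes few windows of chromosome I passed the same rule at 30 min. In the mutant 4 windows (2.04%), from 1 to 4000, were lower than in wild type, and 1 window (0.510%), from 192001 to 193000, was higher, against 8.13% and 11.6% of the windows of the genome. At 40 min 16 windows (8.16%) were lower, against 23.9% of the genome, and 33 (16.8%) were higher, against 27.3%. The higher windows at 40 min were in 2 runs, 6 windows from 50001 to 56000 and 27 from 78001 to 105000, both over valleys of the wild-type profile. The lower ones were the first window of the chromosome, 7 windows from 120001 to 127000 over a peak of the wild-type profile, and 8 of the windows from 195001 to 221000. Chromosome I thus had a smaller share of called windows than the genome in each direction and at each time.

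Which windows passed depended in part on the reference. With the G1 libraries exchanged, 4 windows (2.04%) were lower in the mutant at 30 min and 15 (7.65%) were higher, against 12.2% and 9.53% of the genome. Only 1 of the 4 lower windows was among the 4 called with own G1 libraries. At 40 min 23 windows (11.7%) were lower and 35 (17.9%) higher, against 15.6% and 18.2% of the genome. Of the 16 lower windows called with own G1 libraries, the 7 from 120001 to 127000 were called again, and neither the first window nor any of the 8 near the right end was. Of the 33 higher windows 27 were called again.

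On a scale with a mean of 1 for the chromosome in both genotypes, lower windows are offset by higher ones, so a share near 50% over all windows is built in and only its distribution is informative. Without a rule of size, 95 of the 196 windows (48.5%, 95% Wilson interval 41.6 to 55.4%) were lower in the mutant than in wild type at 30 min, and 100 (51.0%, 44.1 to 57.9%) at 40 min. On the other 15 chromosomes the shares were 52.8% and 49.5%. The Wilson intervals treat windows as independent draws, which neighbours are not. On the left 50 of 59 windows (84.7%, 73.5 to 91.8%) were lower in the mutant at 30 min, and on the right 45 of 137 (32.8%, 25.5 to 41.1%). With exchanged G1 libraries these shares were 67.8% (55.1 to 78.3%) and 51.1% (42.8 to 59.3%). At 40 min they were 52.5% on the left and 50.4% on the right, and 39.0% and 50.4% with exchanged libraries. On the scale with a genome-wide mean of 1, no window was lower in the mutant at either time (0 of 196, Wilson upper bound 1.92%). That scale carries the level of the whole chromosome, which with own G1 libraries was 0.763 against 1.29 at 30 min and 0.773 against 1.27 at 40 min.

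The largest single differences between genotypes were named by a rule, up to 3 windows in each direction and at each time. At 30 min the largest losses in the mutant were in the left part. They lay in the first window of the chromosome, with 1.12 in wild type and 0.970 in the mutant, from 31001 to 32000, with 1.07 and 0.989, and from 12001 to 13000, with 1.06 and 0.992. The largest gains lay from 192001 to 193000, with 0.871 and 0.961, from 205001 to 206000, with 0.889 and 0.963, and from 134001 to 135000, with 0.898 and 0.955. Of these the last was reversed with exchanged G1 libraries, to a difference of -0.0258. At 40 min the losses lay from 220001 to 221000, with 1.26 and 1.08, from 206001 to 207000, with 1.07 and 0.918, and from 123001 to 124000, with 1.06 and 0.936. The first of these is a lone window with a counting error of 0.0715 on a difference of -0.180, and with exchanged G1 libraries the first and second differences became 0.0310 and 0.00556. The gains lay from 100001 to 101000, with 0.736 and 0.879, from 81001 to 82000, with 0.857 and 0.981, and from 51001 to 52000, with 0.852 and 0.961. The 3 losses and the other 2 gains at 30 min, and the 3 gains and the loss at 123001 at 40 min, kept their direction with exchanged G1 libraries. Their sizes did not all hold. At 30 min the difference went from -0.146 to -0.0589 in the first window and from -0.0680 to -0.0386 at 12001. It went from 0.0738 to 0.216 at 205001, while at 31001 it was -0.0782 and -0.0788.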

How the data were processed

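DNA was sequenced as paired-end reads from 6 libraries, 1 for each condition. Per the labels the authors used cutadapt, BWA 0.7.8 and Picard 1.110 and mapped to sacCer2. They excluded repetitive sequence and deposited raw read counts in 1 kb bins that start every 500 bp. Ratios of S phase to G1 reads, unscaled, with a chromosome mean of 1, and smoothed, were deposited beside them. How duplicates were handled is not stated there. On chromosome I the deposited ratio equalled the counts' ratio within 0.0005.

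Relative copy number was recomputed from the counts so that the G1 library could be exchanged. Windows needed a deposited ratio in all 4 profiles, and 2 windows in the rDNA, at over 5 times the median G1 depth, were dropped, which gave 11507 windows. A Gaussian kernel of 2 kb SD over windows with a value was used for smoothing. Counting errors came from Poisson error propagation, with log-scale intervals for ratios of summed counts. No test between conditions was possible. The members, boundary and measures were chosen with earlier results of these data known. Named were all peaks and valleys, and at each time up to 3 windows of largest loss and of largest gain in *pol2-REL*, at least 10 kb apart. The code for peak calls and intervals was run on simulated Poisson counts with widely spaced planted peaks. This could check the code only. It does not cover peaks as close or as low as those here, or differences between cultures. The alternatives changed the G1 reference, windows, filter, boundary, average, smoothing, scaling and peak positions. Scripts ran in Python 3.11.15 with pandas 2.3.3, numpy 2.4.6, matplotlib 3.10.9 and SciPy 1.17.1.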

Additional observations from a re-analysis of the deposited data

Results flagged for a closer look

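Among the levels of the whole chromosome, its left over right ratios, and the 40 over 30 min ratios of its peaks and valleys, there were 5 comparisons in which wild type and *pol2-REL* (the mutant) lay on opposite sides of 1, each with a counting interval that did not include 1. None of these differences between the genotypes was tested, since there is 1 library per condition. The level of chromosome I relative to the genome, over the G1 library of the same genotype, was 0.763 in wild type and 1.29 in the mutant at 30 min, and 0.773 and 1.27 at 40 min. From 30 to 40 min, without a G1 library, it differed by a factor of 1.01 in wild type and 0.990 in the mutant. At the peak from 70001 to 71000 the 40 over 30 min ratio, scaled to the chromosome, was 0.981 in wild type and 1.02 in the mutant. At the valley from 203001 to 204000 it was 1.19 and 0.953.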

How the results depend on the processing

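Of 114 alternative values, 75 stayed within the main interval, or within 1.5 times a count of windows, 30 moved further and 9 changed direction. A change of direction was counted only where the main interval excluded no difference. Elsewhere a value that crossed to the other side, such as the ratio of summed heights at 30 min, was not counted among the 9. Exchanging the G1 libraries turned the level of chromosome I to 1.16 and 1.17 in wild type and 0.846 and 0.838 in the mutant at 30 and 40 min. Their sum gave 0.879 and 0.890, and 0.974 and 0.965. Medians of window ratios gave 0.743 in wild type and 1.30 in the mutant at 30 min. The left over right ratio with exchanged G1 libraries was 1.06 and 0.911 in wild type and 1.02 and 0.941 in the mutant, and with their sum 1.02 and 0.936 in the mutant. In wild type it was 1.06 and 0.909 without windows within 20 kb of an end, 0.952 at 40 min with the boundary at 50 kb and 0.912 at 40 min as a ratio of medians. In the mutant at 40 min it was 0.934 with the boundary at 70 kb and 0.939 as a ratio of medians.

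The share of windows lower in the mutant was 56.1% at 30 min with exchanged G1 libraries, 43.2% at 40 min with at least 1 read per window, and 0% at both times with a genome-wide mean of 1. The count of windows higher in the mutant by over 1.1-fold at 30 min was 15 with exchanged G1 libraries, an alternative chosen after seeing the data. The SD in the mutant over that in wild type turned to 1.27 at both times with a genome-wide mean of 1 and own G1 libraries. With those libraries, that scale multiplies chromosome I by a larger factor in the mutant. The ratio of SDs was 0.659 at 30 min with a kernel of 4 kb. The ratio of summed heights was 0.693 and 0.502 with exchanged G1 libraries and 0.880 and 0.616 with their sum. At 30 min it was 0.894 with at least 1 read per window and 1.39 with peaks called on *pol2-REL* only. At 40 min it was 0.963 with a kernel of 1 kb and 8 peaks, 0.908 with 4 kb and 2 peaks, and 1.68 with peaks called on *pol2-REL* only, 4 in number. The cause of these shifts was not tested. Leaving out the windows from 199001 on, chosen after seeing the data, moved none of the 8 values recomputed out of its interval. No paired analysis was possible because no group has replicates, with 1 library per condition, and the labels carry no replicate numbers. Counting error limits single windows to about 2% per library, and no value covers the difference between cultures.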
